A study of Canis lupus familiaris with 8 samples.

Results

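Low-RNA T cells are described here: cell barcodes of canine blood T cells with 500 to under 2000 unique molecular identifiers (UMIs, tags that count single captured RNA molecules). They were compared with deeper cells of 2000 to 20000 UMIs. Members were chosen by their total UMI count and by a share of mitochondrial UMIs of at most 10%, so both of these measures are described below and not tested. This rule gave 1020, 1329, 1110 and 1290 cells in dogs 1 to 4, together 4749 of the 31909 cells that passed the same limits and of 33125 barcodes in all. The cells are sorted TCRαβ+ T cells of 4 healthy Beagles with routine vaccinations, each with 1 expression library and 1 V(D)J library. The animals were a 5-year-old female (dog 1), a pair of 7-year-old males (dogs 2 and 3) and a 9-year-old male (dog 4). The T cells of every dog were frozen after the sort and thawed before library preparation, which all libraries share. The dog was the replicate, so n = 4 in every comparison, and age and sex were not tested.

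In droplet sequencing, the UMI total of a barcode depends on how much RNA the cell holds and on how much of it was captured. A large part of the messenger RNA of a resting T cell codes for ribosomal proteins, the building blocks of the machinery that translates all other messages. The genes ITGB1, CD44, CD28 and AHNAK were given as markers of the low-RNA cells. They code for the β1 integrin chain, through which T cells bind to matrix and endothelium, for a hyaluronan receptor of antigen-experienced cells, for the costimulatory receptor of T cells and for a very large scaffold protein at the plasma membrane, in this order.

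Low-RNA cells made up 14.4%, 15.7%, 13.7% and 15.6% of the kept cells of dogs 1 to 4. They held 1358320, 1754736, 1521207 and 1619836 UMIs, against 25045940, 33299021, 30683954 and 30875142 UMIs in the deeper cells. The share of cells differed little between dogs, and the low-RNA sums were of similar size. Their medians were 1319, 1319, 1421 and 1241 UMIs and 781.5, 817, 799.5 and 779.5 genes per cell. In the deeper cells the medians were 3845, 4284, 4074 and 4142 UMIs and 1481, 1665, 1597 and 1661 genes. Both differences follow from the UMI limit. The median mitochondrial share of UMIs was 4.42%, 4.39%, 4.38% and 3.69% in low-RNA cells and 2.05%, 2.01%, 2.25% and 1.48% in deeper cells, so it was higher in the low-RNA cells of every dog although the same limit of 10% held for both classes.

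The limit of 2000 UMIs cut through a gradual change. Just inside it, from 1800 to under 2000 UMIs, 188, 188, 203 and 164 cells of dogs 1 to 4 had ITGB1 at 325, 841, 269 and 672 CPM (counts per 1000000, the share of a gene in all UMIs of the summed cells). Just outside it, from 2000 to 2199 UMIs, 190, 174, 241 and 177 cells had 183, 528, 213 and 401 CPM. V(D)J recovery, the share of cells with at least 1 productive receptor rearrangement, was 64.4%, 67.6%, 72.4% and 67.7% just inside and 74.2%, 72.4%, 78.8% and 75.7% just outside.

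Barcodes were compared between libraries, since the same barcode can appear in several. Over all pairs of dogs, 594 barcodes were shared, counted over all barcodes before the UMI and mitochondrial limits. Of these, 145 were low-RNA in at least 1 dog. Of the shared barcodes, 345 had a productive TRB rearrangement in both dogs, and in 0 of these was the junction the same. The share of low-RNA cells with such a barcode was 2.65%, 3.31%, 2.97% and 4.19% in dogs 1 to 4, and in deeper cells it was 3.75%, 3.55%, 3.80% and 3.28%.

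The low-RNA sums held transcripts that define T cells. CD3E, a chain of the T cell receptor complex, had 1513, 1275, 1242 and 1369.9 CPM in the low-RNA sums of dogs 1 to 4 and 1350.2, 1169, 1198 and 1285 CPM in the deeper sums. CD3D and CD3G, the partner chains of CD3E, had 490.3, 596, 449 and 596 CPM and 601, 611, 511 and 551 CPM in low-RNA cells. CD3D and CD3G were named after their values had been seen. All chains of this complex that were looked at were present in the low-RNA cells of every dog, at plain shares above those of its deeper cells, although CD3E had a log2 change of -0.30 under the scaling described below. The share of free RNA among the UMIs of these barcodes was not estimated. These values therefore show T cell transcripts in the sums and do not test the label of single barcodes.

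Low-RNA cells differed from deeper cells in the share of the ribosomal protein genes, of which 61 were found in the files. They took 15.5%, 11.1%, 17.2% and 10.8% of all UMIs in the low-RNA sums of dogs 1 to 4 and 25%, 22.6%, 23.0% and 21.1% in the deeper sums. No low-RNA sum reached a deeper one. The mean was 13.7% ± 3.17 against 22.9% ± 1.61 (SD, n = 4), a difference of -9.26 percentage points that had this sign in 4 of 4 dogs. The exact paired permutation test gave p = 0.13, two-sided, which is the smallest value that 4 pairs allow, and 0.143 after Benjamini-Hochberg adjustment over the 8 comparisons of this kind.

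Per cell, this share had a low and a high peak among low-RNA cells. Of the low-RNA cells, 455, 811, 282 and 739 in dogs 1 to 4 drew under 8% of their UMIs from ribosomal protein genes, which is 44.6% (exact 95% binomial interval 41.5 to 47.7), 61.0% (58.3 to 63.7), 25.4% (22.9 to 28.1) and 57.3% (54.5 to 60.0). Another 496, 408, 670 and 386 cells drew 16% or more, as nearly all deeper cells did. The ranges were chosen after the values had been seen, and they give a description. Between 7% and 9% there were 9, 38, 17 and 31 low-RNA cells, so the limit of 8% lay in a sparse region. Around the limit of 16% there were more in every dog, with 37, 39, 89 and 85 low-RNA cells. The deeper cells near that limit numbered 126, 394, 340 and 578.

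Among deeper cells, only 34, 144, 50 and 73 cells were under 8%, or 0.560%, 2.02%, 0.714% and 1.05%. Over all dogs, 2287 of the 2588 cells under 8% were low-RNA cells. From 500 to under 1000 UMIs the share of such cells was 61.8%, 63.8%, 34.7% and 68.2%, from 2000 to 2999 UMIs it was 2.35%, 10.6%, 2.78% and 4.42%, and in each bin from 3000 UMIs on it was at most 0.993%. Dog 3 had the fewest cells of this kind at every depth under 2000 UMIs.

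**Figure D1:**
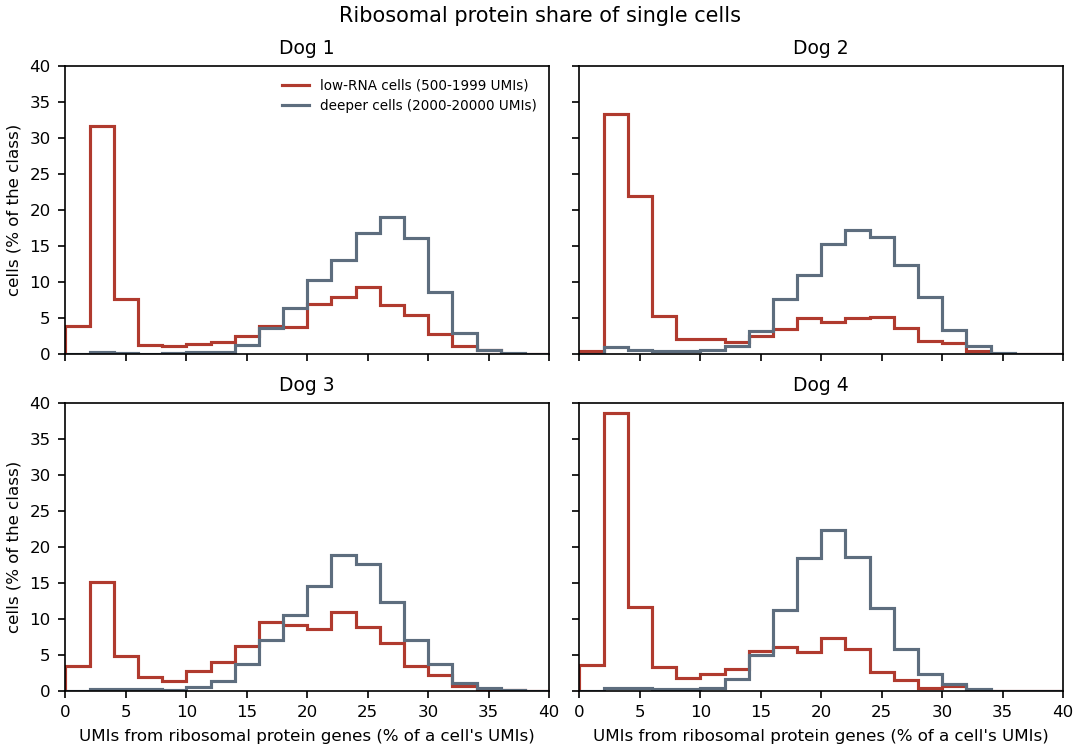
Share of each cell's UMIs from 61 ribosomal protein genes (x axis, in steps of 2 percentage points) against the percentage of cells of the class (y axis), for dogs 1 to 4, with low-RNA cells in red and deeper cells in grey. The low-RNA cells have a peak at 2% to 4% that holds 15.1% to 38.6% of them, lowest in dog 3, against at most 0.926% of deeper cells in the same step.

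ITGB1 (ENSCAFG00000003821) had 701, 1029, 431 and 1169 CPM in the low-RNA sums of dogs 1 to 4 and 178, 278, 236 and 309 CPM in the deeper sums. All low-RNA values were above all deeper values. On the log2 scale the change was 1.26 ± 0.13 (SE; edgeR quasi-likelihood fit with the dog as a block, adjusted p = 9.93e-08). Changes from this test are relative to a scaling (TMM) that centres most genes near 0, while CPM are plain shares.

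AHNAK (ENSCAFG00000032525) had 1461, 1742, 794 and 1675 CPM against 337.5, 505, 420.2 and 603 CPM, with a log2 fold change of 1.17 ± 0.13 (edgeR, adjusted p = 3.278e-07). Again the groups did not overlap, which held for most genes called higher (counts below). CD28 (ENSCAFG00000012872) had 194, 259.9, 151 and 277 CPM against 86.8, 108, 97.4 and 122 CPM, a log2 fold change of 0.66 ± 0.09 (edgeR, adjusted p = 4.517e-06), also without overlap.

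CD44 (ENSCAFG00000006889) had 869, 1123, 671 and 982 CPM in low-RNA cells and 512, 624, 622 and 646 CPM in deeper cells. Its share was higher in 4 of 4 dogs, but its log2 fold change of 0.18 ± 0.11 did not pass (edgeR, adjusted p = 0.170). With sums scaled to their totals in place of TMM, CD44 passed with a log2 fold change of 0.58. Dog 3 was lowest for each of the 4 markers in the low-RNA cells, as it was for the cells under 8% ribosomal share.

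ITGB1 and AHNAK were not highest in the shallowest cells. In the bin of 1000 to under 1500 UMIs, ITGB1 reached 957, 1178, 597 and 1567 CPM, against 779, 967, 287 and 1182 CPM from 500 to under 1000 UMIs. From 2000 UMIs on it lay between 106 and 362 CPM in every bin and dog. AHNAK followed the same order in every dog, with 2091, 1965, 1008 and 2034 CPM from 1000 to under 1500 UMIs. CD28 had no such common order, with 276, 346, 118 and 311 CPM from 500 to under 1000 UMIs and 219, 329, 213 and 351 CPM from 1000 to under 1500 UMIs.

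**Figure D2:**
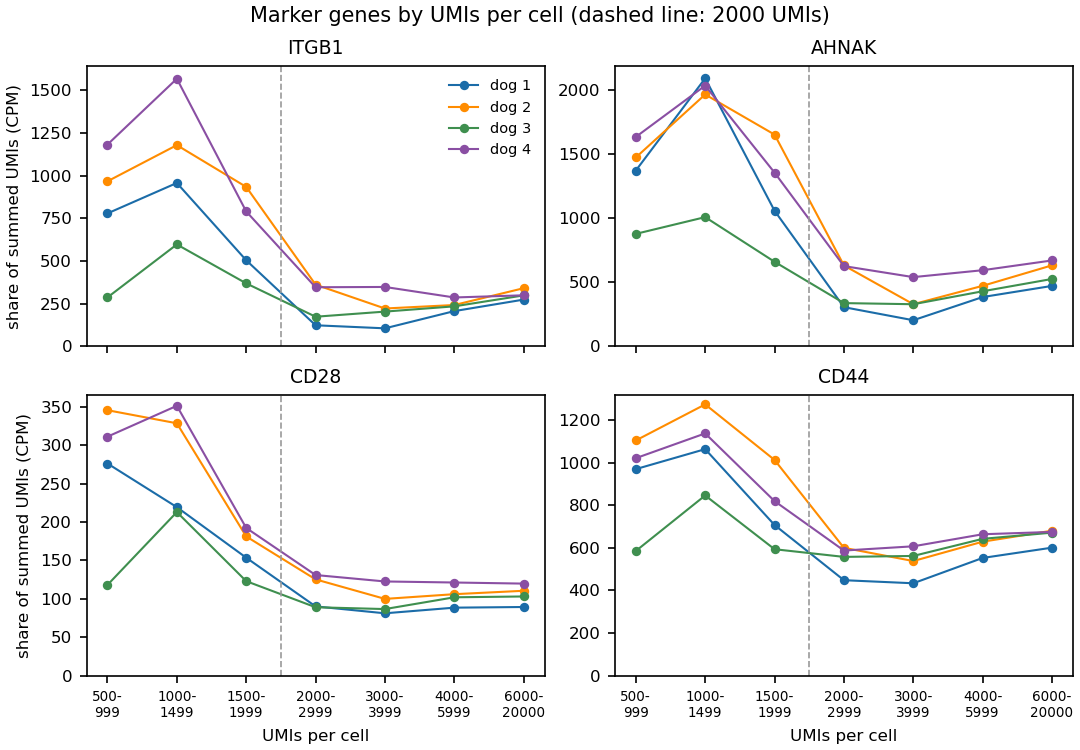
CPM of ITGB1, AHNAK, CD28 and CD44 (y axis, from 0) in cells summed by UMIs per cell (x axis, 7 bins from 500 to 20000 UMIs), with a line for each dog and the limit of 2000 UMIs dashed. ITGB1 and AHNAK peak in the bin of 1000 to under 1500 UMIs in every dog and are low from 2000 UMIs on.

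Across all genes, 10493 passed the filter on low counts and 5568 differed at an adjusted p under 0.05 (edgeR), of which 2847 were called higher (27.1% of genes tested) and 2721 lower (25.9%). A change of at least 2-fold was fitted for 374 of the higher and 574 of the lower genes. With sums scaled to their totals, the median log2 change of all genes rose by 0.41, and 5433 genes were called higher against 1223 lower, so that 81.6% of calls were higher in place of 51.1%. A call of lower therefore means lower than the bulk of genes. Of the 2721 genes called lower, 1464 also had a smaller plain share in 4 of 4 dogs, and of the 2847 called higher, 2799 had a larger one. Plain shares did not overlap between the classes for 2509 of the genes called higher (88.1%) and 883 of those called lower (32.5%).

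In sums of cells, fewer cells of a type and less RNA per cell cannot be told apart. Many genes moved in each direction, so a list of genes is given below by its counts beside these background shares and by its median beside the median of all genes, 0.04. The classes also differ in their UMIs per cell and in their mitochondrial share, and the part of either in the results below was not tested beyond the alternatives given at the end.

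Ribosomal protein genes fell almost without exception. Of 59 tested, 58 were called lower and 0 higher, with a median log2 change of -1.17. RPS18, a protein of the small subunit (ENSCAFG00000000950), showed the largest fall among called genes with a mean of at least 50 CPM. It had 1225, 825, 1247 and 847 CPM in low-RNA cells of dogs 1 to 4 and 2457, 2368, 2335 and 2198 CPM in deeper cells, a log2 fold change of -1.61 ± 0.13 (edgeR, adjusted p = 1.314e-08). Others among the 10 largest falls were RPL12, RPLP0 and RPS25, with log2 fold changes of -1.58, -1.42 and -1.40. RPS7 had 7108, 4584, 7114 and 4575 CPM against 10099.8, 8407, 8511 and 7778 CPM and changed by -1.01. A list of translation factors and related genes moved the same way, with 21 of 26 lower, 2 higher and a median of -0.87. Among these, TPT1, which codes for the translationally controlled tumor protein, fell by 1.32 on the log2 scale, with a mean of 3229.7 CPM in low-RNA cells and 6029 CPM in deeper cells.

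Nuclear genes of the respiratory chain fell as a group, with 51 of 52 tested called lower, 0 higher and a median of -0.95. COX8A, a subunit of cytochrome c oxidase (ENSCAFG00000014738), had 266, 276, 370.1 and 274 CPM in low-RNA cells and 505, 570.0, 534 and 607 CPM in deeper cells. The groups did not overlap, and the log2 fold change was -1.32 ± 0.11 (edgeR, adjusted p = 2.254e-08). The mitochondrial genome codes for other subunits of the same complexes. Its share was bounded by the rule and is given without a test: MT-CO1 had 8759, 9784, 9711 and 8627 CPM in low-RNA cells and 4174, 4616, 5184 and 3692 CPM in deeper cells. Shares of nuclear and mitochondrial genes of the respiratory chain therefore differed in opposite directions.

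Among smaller metabolic groups, 6 of 12 glycolysis genes were lower and 3 higher, with LDHB, a lactate dehydrogenase chain, at -1.03. SLC25A5, the carrier that exchanges ADP and ATP across the inner mitochondrial membrane, fell by 1.39 and NME1, a nucleoside diphosphate kinase, by 1.44 on the log2 scale. Both were among the 10 largest falls and did not overlap between classes. That set also held UNC93B1, which carries Toll-like receptors to endosomes, at -1.44, and TFPT, a subunit of a chromatin remodelling complex, at -1.40. Of the 22 genes of the cell cycle tested, 16 were lower and 0 higher, with STMN1, a microtubule destabilizer, at -1.14.

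A list of genes for chromatin, splicing and other large, mostly nuclear proteins had 38 of 38 tested members called higher and a median of 0.63. It also held nuclear pore genes (RANBP2 and TPR, at 0.88 and 0.44) and genes of ubiquitin-conjugating or ligating enzymes (HUWE1, BIRC6, HERC1 and UBR4, at 1.06, 1.03, 0.75 and 0.68), all named after their values had been seen, and it did not hold TFPT, which fell. KMT2C, a histone methyltransferase (ENSCAFG00000004955), had 411, 404, 231 and 388 CPM in low-RNA cells and 136, 124, 110.4 and 123 CPM in deeper cells, a log2 fold change of 1.10 ± 0.09 (edgeR, adjusted p = 2.254e-08). SRRM2 and SF3B1, proteins of the spliceosome, rose by 0.55 and 0.54. Every tested gene of the list had a larger plain share in the low-RNA cells of 4 of 4 dogs. This measure was not counted over all genes. It also held for 15 of 20 immediate early genes, of which 5 were called higher.

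The 10 largest rises were led by a gene for a scaffold protein. KIDINS220, a membrane scaffold (ENSCAFG00000003323), had 149, 169, 78.2 and 149 CPM in low-RNA cells and 35.2, 32.3, 28.3 and 30.3 CPM in deeper cells, and its log2 fold change of 1.68 ± 0.11 was the largest among called genes with a mean of at least 50 CPM (edgeR, adjusted p = 4.891e-09). MACF1, a giant linker of microtubules and actin (ENSCAFG00000003120), had 2935, 2868, 1432 and 2531 CPM against 832, 700.3, 617 and 645 CPM, a log2 fold change of 1.35 ± 0.12 (edgeR, adjusted p = 3.350e-08). Neither gene overlapped between classes.

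Others of the 10 were IQGAP2, a scaffold of the cytoskeleton (1.5), ATP2B4, a plasma membrane calcium pump (1.47), MAP3K2, a kinase (1.38), CRY2, a repressor of the circadian clock (1.35), ESYT3, a tether between membranes (1.30), ADAM19, a membrane metalloprotease (1.30), and ITGB1. Among low-RNA cells, dog 3 had the lowest share for each of the genes named from this set, and its shares still exceeded those of all deeper sums.

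The cytoskeleton was split, with 14 of 37 genes higher and 16 lower. ACTB, the β actin gene, had 2871, 3520.2, 3850.2 and 4024 CPM in low-RNA cells and 3767, 5089, 5008 and 5646 CPM in deeper cells, and fell by 0.86 on the log2 scale. TMSB10, a small protein that binds actin monomers, fell by 1.10. Integrins and other adhesion genes moved mostly upward, with 14 of 21 higher, 1 lower and a median of 0.51. Genes of the endoplasmic reticulum and secretion were mixed, with 11 of 26 higher and 7 lower. The chaperones HSP90B1 and HSPA5 rose by 0.77 and 0.68, and SEC61B, a small subunit of the translocon, fell by 1.37.

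**Figure D3:**
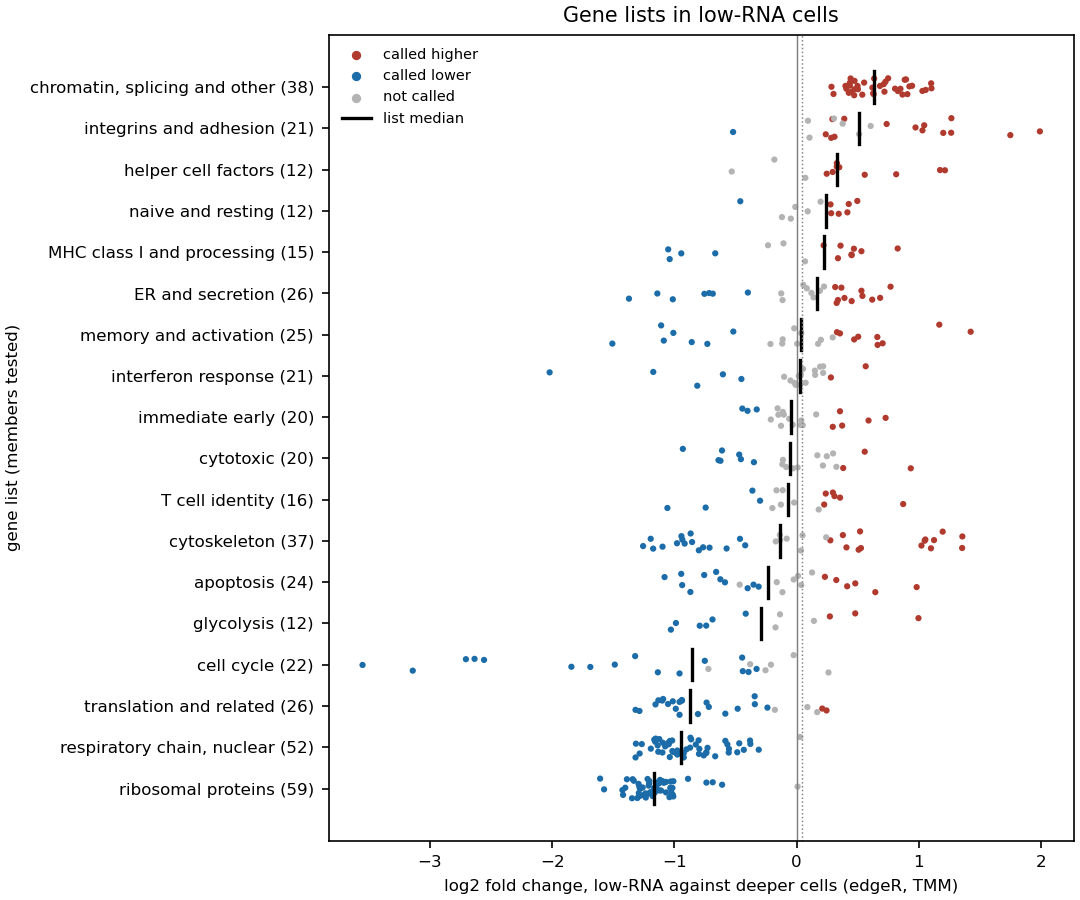
Log2 fold change of single genes between low-RNA and deeper cells (x axis; edgeR with TMM scaling, dog as a block) for 18 gene lists (y axis, members tested in parentheses), with called genes in red (higher) or blue (lower), others in grey, the list median as a black bar and the median of all genes as a dotted line. Ribosomal protein, respiratory chain and translation genes lie almost wholly below 0, and the 38 tested genes of the chromatin, splicing and other list wholly above it.

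Genes that mark T cells and their subsets did not move as a block. Of 16 T cell identity genes, 6 were higher and 4 lower. PTPRC, the CD45 phosphatase of all leukocytes (ENSCAFG00000011265), had 4079, 4856, 2875 and 4570.2 CPM in low-RNA cells and 1658, 1649, 1609.8 and 1705 CPM in deeper cells, with no overlap and a log2 fold change of 0.87 ± 0.12 (edgeR, adjusted p = 4.122e-06). CD6, a coreceptor that tunes T cell activation, rose by 0.30. CD52, a small surface glycoprotein, fell by 1.06. CD3E was called lower with -0.30 under TMM, but its plain share was higher in 4 of 4 dogs and its change was 0.11 with sums scaled to their totals.

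IL7R, the receptor for the survival cytokine IL-7, had 1056, 1805, 1018 and 1395 CPM in low-RNA cells and 580.2, 867, 762 and 702 CPM in deeper cells, a log2 fold change of 0.43 ± 0.11 (edgeR, adjusted p = 0.00183). It was among the 6 of 12 genes of naive and resting T cells that were higher, while 1 was lower. The direction of IL7R turned to -0.39 among cells of 16% or more ribosomal share and to -0.03 in CD8A single-positive cells. FOXP1, a transcription factor that maintains quiescence, rose by 0.50. Of 25 genes of memory and activation, 9 were higher and 7 lower. LGALS1, the gene of galectin-1 (ENSCAFG00000001487), had 222, 397, 415 and 339.5 CPM against 468, 885, 788 and 807 CPM and fell by 1.51 on the log2 scale, without overlap (edgeR, adjusted p = 4.891e-09). The structural genes VIM, S100A11 and CRIP1 of the same list fell by 0.86, 1.11 and 1.09.

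Of 12 helper cell factors, 9 were higher and 0 lower. GATA3 and STAT4, transcription factors of type 2 and type 1 helper cells, rose by 0.35 and 0.30, and TBX21, which codes for T-bet, by 0.56. CCR4, a homing receptor of regulatory and type 2 helper cells, was rare but had 58.2, 73.5, 25.6 and 43.2 CPM in low-RNA cells and 9.38, 18.7, 14.6 and 12.9 CPM in deeper cells. Among cells of 16% or more ribosomal share the direction turned for GATA3, STAT4 and CCR4, to -0.23, -0.19 and -0.69. CTLA4, an inhibitory receptor, rose by 0.54. Regulatory T cell genes gave 3 of 6 higher and 0 lower, and inhibitory receptors and related genes 4 of 9 higher and 1 lower.

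Receptor variable genes of T cells gave 0 of 8 higher and 2 lower. Cytotoxic genes were mixed, with 3 of 20 higher and 7 lower. HOPX, a regulator of effector cells, fell by 0.93 on the log2 scale. CCL5, a chemokine of effector cells, had 359, 553, 554 and 557 CPM in low-RNA cells and 616, 542, 338 and 653 CPM in deeper cells. It was called lower at -0.47 under TMM, although its plain share was higher in dogs 2 and 3. The change was -0.06 with sums scaled to their totals, -0.24 without dog 1 and -0.40 without dog 4, none of which passed, and it turned to 0.44 among cells of 16% or more ribosomal share. GZMB, the granzyme B gene, had 170.1, 326, 870 and 616 CPM in low-RNA cells and 155, 209.7, 418 and 467 CPM in deeper cells. Its values overlapped and its log2 fold change of 0.17 ± 0.12 did not pass (edgeR, adjusted p = 0.250). Its sign depended on the cells compared. The change was -0.47 against deeper cells of 2000 to under 4000 UMIs, -0.22 for low-RNA cells under 1500 UMIs and -0.05 without dog 3, but 0.50 in CD8A single-positive cells and 1.06 among cells of 16% or more ribosomal share.

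Antigen presentation was divided as well, with 8 of 15 genes of MHC class I and antigen processing higher and 4 lower. The list held chains of class I molecules, proteasome and peptide-loading genes, and the chaperone genes CALR, PDIA3 and CANX, which were called higher and are also counted in the endoplasmic reticulum list. DLA-64, a class I gene, rose by 0.36, and PSME2, an activator of the immunoproteasome, fell by 1.05. B2M, the light chain of class I molecules, had -0.23 ± 0.14 and did not pass (edgeR, adjusted p = 0.177), and its sign turned to 0.17 with sums scaled to their totals.

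Stress and death programs showed no common direction. Among immediate early genes 5 of 20 were higher and 3 lower, with TNFAIP3, an inhibitor of NF-κB, at 0.73. Of 9 heat shock genes, 1 was higher and 4 lower, with the constitutive chaperone HSPA8 at -0.67. Apoptosis genes gave 6 of 24 higher and 11 lower, with the death ligand TNFSF10 at 0.32 and CASP6, an executioner caspase, at -0.94. Of 21 interferon response genes, 2 were higher and 5 lower, with SP110 at 0.57 and ISG20, an exonuclease, at -1.17.

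Markers of other blood cells were checked in the same sums. Of 11 B cell genes, the summed level was 6635, 4888, 7614 and 5274 CPM in low-RNA cells and 10862, 9753, 10267 and 9584 CPM in deeper cells, nearly all of it CD79A. CD79A, a chain of the B cell receptor, changed by -1.17 and IGHM, the IgM heavy chain gene, by -0.76. In the deeper sums of dogs 1 to 4, CD79A had 262695, 317145, 308130 and 286296 UMIs, while CD79B had 9, 14, 10 and 15. MS4A1, the CD20 gene of B cells, named after its values had been seen, was called higher, with 4.42, 8.55, 3.94 and 1.85 CPM in low-RNA cells and 2.32, 2.04, 2.48 and 0.777 CPM in deeper cells (edgeR, log2 fold change 0.94 ± 0.33, adjusted p = 0.0215), from 6, 15, 6 and 3 UMIs in the low-RNA sums. Without dog 2 its change was 0.50 and did not pass (edgeR, adjusted p = 0.364). PAX5 and CD22 had 0 UMIs in every sum, low-RNA or deeper. CD79B and MZB1 had 0 UMIs in the low-RNA cells of every dog and at most 15 and 4 in a deeper sum. These zeros therefore do not separate the classes. Of the B cell genes, 5, 5, 4 and 4 were at 0 in the low-RNA sums of dogs 1 to 4. The 12 monocyte and dendritic cell genes summed to 969, 1520, 1998 and 1704 CPM against 1428, 2473, 2528 and 2901 CPM. S100A8 was the most abundant of them and changed by -1.03. In the deeper sums of dogs 1 to 4 it had 35490, 81736, 75946 and 87384 UMIs, while LYZ had 15, 18, 19 and 21. ITGAM, an integrin chain of myeloid cells, had 8.83, 26.2, 112 and 101 CPM in low-RNA cells and 10.1, 17.3, 52.0 and 69.4 CPM in deeper cells and did not pass (edgeR, adjusted p = 0.0623), although it passed without dog 1 at 0.37 and with sums scaled to their totals at 0.69. Against deeper cells of 2000 to under 4000 UMIs, ITGAM passed in the opposite direction, at -0.52 (edgeR, adjusted p = 0.000362). Without dog 3 its change was 0.03. CSF1R and CD163 had 0 UMIs in every sum, low-RNA or deeper. Of the 12 genes, 9 were at 0 in a given low-RNA sum, not the same ones in each dog. Both lists thus had smaller summed shares in low-RNA cells through CD79A and S100A8, while MS4A1 had a larger share. Each sum rested on a single gene, so neither is read as an amount of B cells or myeloid cells. The part of both lists in the results was not tested.

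Platelet genes, 7 in number, summed to 43.4, 7.98, 5.92 and 10.5 CPM in low-RNA cells and 3.63, 1.44, 2.22 and 3.53 CPM in deeper cells. PPBP, the most abundant in dog 1, GP1BB and TUBB1 gave 40 UMIs in 4 low-RNA cells of dog 1, with 37 of them in 1 cell, and 0 UMIs in the other dogs. ITGB3, the β3 integrin chain and the most abundant in dogs 2 to 4, had 7.36, 7.41, 4.60 and 7.41 CPM in low-RNA cells and 1.48, 0.991, 1.69 and 1.91 CPM in deeper cells. These values did not overlap, and ITGB3 was called higher with a log2 fold change of 1.75 ± 0.30 (edgeR, adjusted p = 6.065e-05), from 10, 13, 7 and 12 UMIs in the low-RNA sums. It is also counted in the integrin list. Among cells with TRA and TRB its change was 0.69 and did not pass (edgeR, adjusted p = 0.526). Among cells of 16% or more ribosomal share it turned to -2.11 and did not pass either (edgeR, adjusted p = 0.264). All 6 erythroid genes had 0 UMIs in low-RNA cells, which allows a share of up to 2.21, 1.71, 1.97 and 1.85 CPM per gene in dogs 1 to 4 at 3 counts. The 4 genes of NK and γδ T cells summed to 5.15 to 9.26 CPM in low-RNA cells and 2.72 to 4.53 CPM in deeper cells, with NCR1 the most abundant in dogs 2 to 4. NCR1, a receptor of NK cells, had 2.21, 7.98, 7.23 and 9.26 CPM against 1.16, 3.12, 4.46 and 4.34 CPM and was called higher with a log2 fold change of 0.64 ± 0.25 (edgeR, adjusted p = 0.0384). It did not pass without dog 1, 2 or 4, with changes of 0.64, 0.53 and 0.63. The change of NCR1 was -0.11 against deeper cells of 2000 to under 4000 UMIs and 0.06 for low-RNA cells under 1500 UMIs. The part of these lists in the results was not tested either.

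Marker levels within the low-RNA cells differed with the ribosomal share. In cells under 8%, ITGB1 had 1659, 1620.5, 1435 and 1992 CPM in dogs 1 to 4, and in low-RNA cells of 16% or more it had 80.6, 143, 113 and 212 CPM. The latter lay below the 178, 278, 236 and 309 CPM of all deeper cells in every dog. AHNAK was likewise at 3333, 2602, 2071 and 2607 CPM under 8% and at 194, 393, 331 and 431 CPM at 16% or more. PTPRC was at 7515, 6996, 6306 and 6833 CPM under 8% and at 1722, 1611, 1731 and 1870.0 CPM at 16% or more. The latter lay near the 1658, 1649, 1609.8 and 1705 CPM of all deeper cells, and below them in dog 2 only. Between 8% and 16%, in 69, 110, 158 and 165 cells, ITGB1 was at 154, 372, 244 and 375 CPM and AHNAK at 877, 1069, 852 and 1211 CPM. Raised shares of both genes were thus seen under 8% and not at 16% or more, while in the range between them AHNAK exceeded the deeper cells in every dog and ITGB1 in 3 of 4.

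The few deeper cells under 8% had ITGB1 and AHNAK levels near or above those of low-RNA cells in that range. Their ITGB1 level was 1990.5, 1913, 1804 and 1978 CPM and their AHNAK level 5110.4, 3057, 2501 and 3799 CPM. When only cells of 16% or more were compared between the classes, an alternative chosen after the values had been seen, 1594 of 10328 genes tested were called in place of 5568, and 1120 of the original calls kept their direction. ITGB1, CD44, CD28 and AHNAK then had log2 fold changes of -0.76, -0.57, -0.12 and -0.40. Other named genes whose sign turned included CD6, CRY2, HSPA5 and TNFSF10, at -0.19, -0.18, -0.20 and -0.13. RPS7 turned to 0.075, but it counts toward the share by which these cells were chosen, so nothing is read from its turn.

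LEF1 showed another order. This transcription factor of naive T cells, named here after its values had been seen, had 802, 465, 493 and 263 CPM in low-RNA cells of 16% or more, 521, 371, 217 and 208 CPM under 8% and 594, 314, 248 and 173 CPM in the deeper cells. Of these 3 groups it was highest in low-RNA cells of 16% or more in every dog. Other genes of the naive and resting list, also named after their values had been seen, did not share an order. TCF7, a partner factor of LEF1, had 452, 344, 321 and 247 CPM at 16% or more and 287, 271, 174 and 216 CPM under 8%. CCR7, the lymph node homing receptor, had 224, 188, 248 and 97.9 CPM at 16% or more and 353, 316, 289 and 174 CPM under 8%. IL7R and FOXP1 were likewise higher under 8% in every dog, with IL7R at 1810.0, 2557, 2627 and 2119 CPM against 542, 662, 572 and 599.6 CPM. LGALS1 was lowest under 8%, with 174, 324, 202 and 194 CPM, intermediate at 16% or more, with 249, 445, 445 and 479 CPM, and highest in the deeper cells.

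The cells under 8% differed from the other low-RNA cells in further measures. Their median mitochondrial share was 6.37%, 5.23%, 6.34% and 4.53%, against 3.04%, 3.09%, 3.63% and 2.23% at 16% or more. When each cell was reduced at random to 500 UMIs, the median number of genes was 397, 400, 397 and 397 under 8% and 336, 340, 338 and 346.5 at 16% or more. CD4, the coreceptor of helper cells, had 947, 753, 810.0 and 718 CPM under 8% and 279.5, 186, 243 and 181 CPM at 16% or more. Cells under 8% therefore combined a higher mitochondrial share with more distinct genes per UMI in every dog. A raised mitochondrial share is also used as a sign of damaged cells, and the part of cell damage in the values of this range, the marker and CD4 shares included, was not tested.

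**Figure D4:**
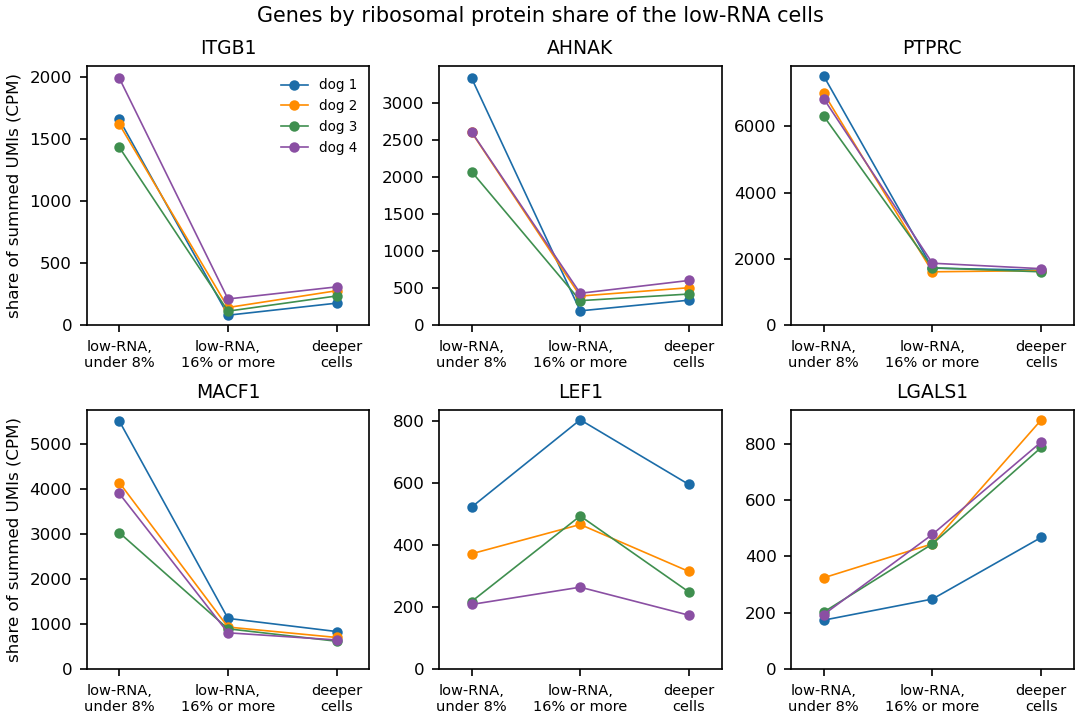
CPM of ITGB1, AHNAK, PTPRC, MACF1, LEF1 and LGALS1 (y axis, from 0) in low-RNA cells under 8% ribosomal share, in low-RNA cells of 16% or more and in all deeper cells (x axis), with a line for each dog. ITGB1, AHNAK, PTPRC and MACF1 are high under 8% only, LEF1 is highest of the groups drawn in low-RNA cells of 16% or more, and LGALS1 is highest in deeper cells.

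Cells under 2000 UMIs that the mitochondrial limit removed had a low ribosomal share as well. They numbered 296, 363, 262 and 150 in dogs 1 to 4, with a median ribosomal share of 3.40%, 4.51%, 3.97% and 3.77%. ITGB1 was at 730.0, 959, 464 and 1089 CPM in them. Productive rearrangements were found in 34.8%, 30.0%, 23.3% and 23.3% of them. Just inside the limit, from 9% to 10%, the 63, 78, 58 and 40 low-RNA cells had a median ribosomal share of 3.15%, 4.39%, 4.22% and 3.54%, and just outside it, up to 11%, 46, 63, 41 and 46 cells had 3.25%, 4.09%, 4.66% and 3.45%.

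At equal depth the low-RNA cells held more genes. Reduced to 500 UMIs per cell, they had a median of 370, 386, 358 and 384 genes in dogs 1 to 4, against 333, 342, 341 and 348 genes in deeper cells, and no cell was too shallow for this step. The difference of 33.5 ± 11.6 genes (SD, n = 4) had the same sign in 4 of 4 dogs (p = 0.13, exact paired permutation test, adjusted p = 0.143 over 8 comparisons). Among cells with a ribosomal share of 16% or more it was 0.625 genes, higher in 1 of 4 dogs.

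The balance of coreceptors leaned to CD4. CD4 (ENSCAFG00000041713) had 554, 524, 353 and 472 CPM in low-RNA cells and 278, 234, 199 and 216 CPM in deeper cells, a log2 fold change of 0.62 ± 0.08 (edgeR, adjusted p = 3.421e-06). CD8A (ENSCAFG00000007464), which marks cytotoxic T cells, had 117, 248, 479 and 399 CPM against 159, 252, 464 and 417 CPM. As a share of the UMIs of both genes, CD8A had 17.5%, 32.1%, 57.5% and 45.8% in low-RNA cells and 36.5%, 51.9%, 70.0% and 65.9% in deeper cells, lower in every dog although the ranges of the classes overlap.

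The difference of -17.8 ± 3.65 percentage points (SD, n = 4) gave p = 0.13 in the exact paired permutation test (adjusted p = 0.143 over 8 comparisons). Within low-RNA cells the CD8A share was 14.0%, 23.9%, 35.6% and 26.8% under 8% and 25.2%, 53.2%, 62.9% and 75.7% at 16% or more. Among cells of 16% or more in both classes, the difference between low-RNA and deeper cells was -0.106 percentage points, higher in 2 of 4 dogs and lower in 2.

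T cell receptors were read from separate V(D)J libraries that the choice of cells did not use. At least 1 productive rearrangement was found in 51.2%, 51.3%, 53.0% and 53.2% of low-RNA cells and in 87.5%, 85.7%, 88.2% and 89.0% of deeper cells of dogs 1 to 4. The low-RNA values of the dogs lay close together beside their exact 95% binomial intervals, which reach at most 3.11 percentage points to either side and cover counting error only. The difference was -35.4 ± 0.852 percentage points (SD, n = 4), with this sign in 4 of 4 dogs.

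By chain, TRA was recovered in 31.3%, 31.5%, 32.0% and 34.3% of low-RNA cells (difference -38.5 ± 2.24 percentage points), TRB in 47.3%, 46.4%, 48.2% and 48.4% (difference -32.5 ± 1.82) and both chains in 27.4%, 26.6%, 27.2% and 29.5% (difference -35.6 ± 2.79). For all these measures of recovery, the exact paired permutation test gave p = 0.13 (adjusted p = 0.143 over 8 comparisons), the smallest value it can give before adjustment.

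Recovery rose with depth on both sides of the limit. TRB was found in 29.3%, 26.6%, 25% and 28.1% of cells from 500 to under 1000 UMIs, in 57.3%, 59.9%, 59.3% and 63.1% from 1500 to under 2000 UMIs and in 75.3%, 70.5%, 76.5% and 76.4% from 2000 to 2999 UMIs. It rose from bin to bin up to 4000 UMIs in every dog. A recovered TRB rearrangement rested on a median of 4, 5, 5 and 5 V(D)J UMIs in low-RNA cells and 8, 9, 9 and 10 in deeper cells.

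By ribosomal share, at least 1 rearrangement was found in 59.1%, 58.8%, 66.0% and 57.5% of low-RNA cells under 8% and in 46.2%, 42.2%, 50.9% and 49.7% of those of 16% or more. Between these ranges it was lowest, at 34.8%, 30.0%, 38.6% and 41.8%. The cells under 8% had the highest recovery in every dog, although their median of 1138, 1259, 1226 and 1130 UMIs was below the 1593, 1526, 1549 and 1547.5 UMIs of cells at 16% or more. Doublets were not removed. Of cells with TRB, 1.24%, 1.46%, 0.935% and 0.960% of the low-RNA cells had more than 1 productive TRB rearrangement, against 4.21%, 5.10%, 3.24% and 3.5% of the deeper cells.

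**Figure D5:**
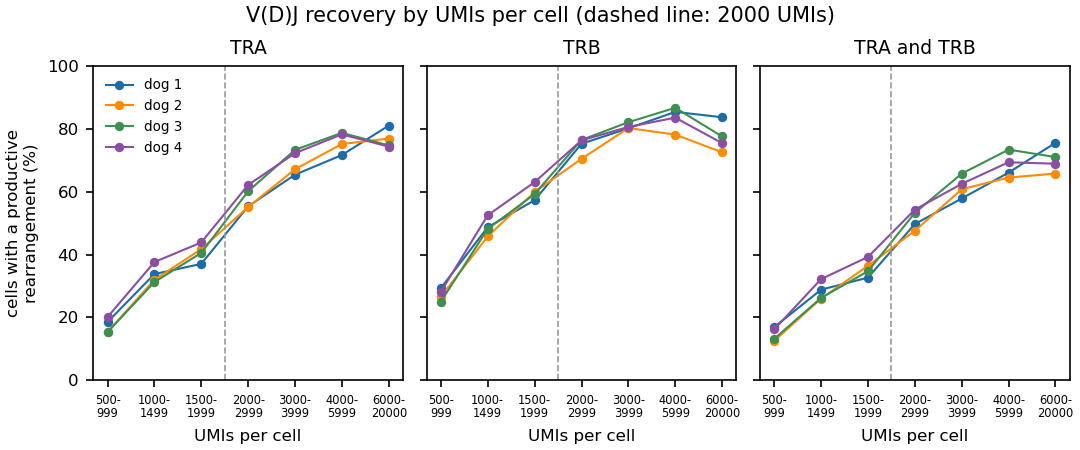
Percentage of cells with a productive TRA, TRB or both rearrangements (y axis, 0 to 100) by UMIs per cell in the expression library (x axis, 7 bins), with a line for each dog and the limit of 2000 UMIs dashed. Recovery of every kind rises from bin to bin up to 4000 UMIs in every dog.

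Junctions tie the low-RNA cells to the deeper cells of the same dog. The TRB junction that was most frequent among low-RNA cells of each dog is printed to show which receptors both classes shared, with the first and last codons in capitals:
dog 1, TRBV25 with TRBJ2-1: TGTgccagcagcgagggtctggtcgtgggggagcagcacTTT
dog 2, TRBV4-3 with TRBJ1-6: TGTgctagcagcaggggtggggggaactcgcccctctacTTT
dog 3, TRBV25 with TRBJ2-5: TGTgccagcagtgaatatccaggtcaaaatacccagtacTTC
dog 4, TRBV1 with TRBJ2-3: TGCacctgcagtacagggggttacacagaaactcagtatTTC

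These junctions of 42 bases each occurred in 4, 12, 20 and 12 low-RNA cells and in 37, 41, 99 and 100 deeper cells of their dogs, which is 0.840%, 1.98%, 3.77% and 1.94% of low-RNA and 0.782%, 0.792%, 1.78% and 1.85% of deeper cells with TRB. In dog 4 another junction tied with it, and the printed junction was also found in 5 cells of other dogs, while the others were found in 0. The low-RNA cells that carried them held 8, 27, 61 and 35 CD8A UMIs and 0 CD4 UMIs, and their median ribosomal share was 17.1%, 17.9%, 17.5% and 18.3%. Of these low-RNA cells, 2, 7, 14 and 10 had a ribosomal share of 16% or more and 1, 4, 2 and 0 had one under 8%. The deeper cells with the same junctions had median shares of 21.3%, 17.6%, 20.2% and 19.3%. Low-RNA cells of a frequent junction thus held CD8A and no CD4 UMIs, and in 3 of 4 dogs they lay in both ranges of ribosomal share.

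Over all cells with exactly 1 productive TRB rearrangement, the junction recurred among the other deeper cells of the dog in 13.2%, 32.8%, 40% and 50.7% of low-RNA cells and in 11.8%, 33.5%, 45.0% and 56.1% of deeper cells. The difference of -2.40 ± 3.31 percentage points (SD, n = 4), lower in 3 of 4 dogs, did not exceed the spread between dogs (p = 0.375, exact paired permutation test, also after adjustment over 8 comparisons). Among cells of 16% or more in both classes it was -6.32 ± 4.17 points, lower in 4 of 4 dogs (p = 0.13, exact paired permutation test, the smallest value it can give). Shares of recurring junctions differed far more between dogs than between classes. With all deeper cells of the dog again as the reference, they were 15.9%, 34.3%, 41.9% and 48.7% in low-RNA cells under 8% ribosomal share. In low-RNA cells of 16% or more they were 10.5%, 26.3%, 33.1% and 47.7%.

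Low-RNA cells with and without a productive rearrangement were then compared with each other, 522, 682, 588 and 686 cells against 498, 647, 522 and 604. Of 7210 genes tested, 290 were called higher with a rearrangement (4.02%) and 247 lower (3.43%). Without dog 3 the count was 326 genes in place of 537, and without the dog as a block it was 21. All 7 receptor variable genes tested were higher. TRBV18 had 384, 449.8, 265 and 449 CPM in cells with a rearrangement and 104, 65.5, 69.8 and 61.5 CPM in cells without, a log2 fold change of 2.36 ± 0.11 (edgeR, adjusted p = 6.884e-59), and TRBV25-1 and TRBV28 rose by 1.52 and 1.06. These genes are part of the receptor message itself, which the V(D)J library reads.

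The other genes of the 5 largest rises were the chemokine receptors CXCR3, with a log2 fold change of 1.19, and CCR9, a receptor for homing to the gut, with 0.89. CXCR3 had 40.2, 123, 65.0 and 128 CPM with a rearrangement and 22.8, 50.1, 24.8 and 57.1 CPM without. Its share was higher in 4 of 4 dogs, although the values overlapped between dogs. CD4, CD8A and CD3E rose by 0.57, 0.48 and 0.33, and 8 of 16 T cell identity genes were higher and 1 lower. Of 26 genes of the endoplasmic reticulum and secretion, 15 were higher and 1 lower.

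Ribosomal protein genes were lower in cells with a rearrangement, with 45 of 59 lower, 0 higher and a median of -0.24, beside -0.01 for all genes. RPS15 had 117, 99.4, 147 and 90.7 CPM with and 329.7, 223, 392 and 299 CPM without a rearrangement, a log2 fold change of -1.47 ± 0.10 (edgeR, adjusted p = 1.020e-34). PFN1, which binds actin monomers, fell by 1.32, RPS21 by 0.92 and TUBA1B, an α tubulin gene, by 0.90. Another of the 5 largest falls, FTH1, shares its symbol with another row of the files and is not described.

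Cells with a rearrangement were also deeper, with medians of 1451.5, 1466, 1556 and 1368.5 UMIs against 1157, 1182, 1221.5 and 1075.5, and their median ribosomal share was 5.38%, 4.47%, 17.7% and 4.12% against 17.0%, 6.98%, 18.8% and 6.84%. The part of either in these differences was not tested. ITGB1 and CD44 rose by 0.36 and 0.33 in cells with a rearrangement, whereas CD28 and AHNAK, with 0.20 (edgeR, adjusted p = 0.208) and 0.15 (edgeR, adjusted p = 0.0989), did not pass.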

How the data were processed

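Each dog gave 1 expression and 1 V(D)J library (10x Genomics 5′, version 2 chemistry), 8 samples in all. The authors deposited matrices of unnormalized UMI counts from Cell Ranger 5.0.1 (CanFam 3.1 alignment), and V(D)J counts of UMIs and reads per productive rearrangement. The other deposited columns hold barcodes, gene names and receptor calls. The gene list of dog 1 has 27980 lines against 20257 matrix rows, so the list that dogs 2 to 4 share was used (correlation of log row totals of dog 1 with each other dog 0.989 to 0.991). Genes are named by the symbols in that list, and 4453 identifiers without a symbol were counted and not named. Genome positions were not used here.

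Barcodes with 500 to 20000 UMIs and at most 10% mitochondrial UMIs (13 genes) were kept, and no doublet caller was run. The UMIs of low-RNA and deeper cells were summed per dog, filtered on low counts and tested with edgeR 4.0.16 (R 4.3.3; quasi-likelihood test, TMM scaling, Benjamini-Hochberg adjustment over all genes tested, limit 0.05), with the dog as a block because both sums of a dog come from 1 animal and library. The standard error is the log2 fold change over the root of F. Single values were tested with exact paired permutations (scipy 1.17.1), two-sided. With 1 library per dog, p-values rest on how far the difference between the compared cells varied among these dogs. edgeR estimates this spread with information shared across genes, so a very small p does not rest on that gene's values alone. Counts were simulated with 100 genes changed by 1 and 100 by 2 on the log2 scale, as many up as down. Between low-RNA and deeper cells the step recovered 94% and 100% of them, with 11 false calls among 10408 genes. For the V(D)J comparison it recovered 88% of genes changed by 1. The simulation had the same dispersion for every gene, the same dog effects in both classes and no broad shift of genes. Its rates therefore do not carry over to the real calls.

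Named genes were the 4 markers, the 3 most abundant members and the strongest called member of each list, and the 10 largest changes in each direction (5 for the V(D)J comparison) among called genes with a mean of at least 50 CPM with 1 direction in every dog. Only some of them are printed, and a few items are not reported here. Members, lists and tests were chosen with earlier results of these data known. Alternatives were another scaling, DESeq2 1.42.0, no filter, other UMI and mitochondrial limits, CD4 or CD8A single-positive cells, cells with both chains, count splitting, no block, and each dog left out. Comparisons in cells of high ribosomal share were added after seeing the data.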

Additional observations from a re-analysis of the deposited data

Results flagged for a closer look

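In 12 of 184 groups of 4 dogs, a share of a described gene lay far from the other 3 dogs. Chance gives such a gap in about 1 of 20 groups. Dog 3 stood apart in low-RNA cells most often: FOXP1 had 92.7 CPM (other dogs 157 to 164), KMT2C 231 CPM (388 to 411), SRRM2 1550.1 CPM (1876 to 1927), SF3B1 1014 CPM (1304 to 1339.8), ITGB3 4.60 CPM (7.36 to 7.41) and COX8A 370.1 CPM (266 to 276). In low-RNA cells of dog 1, CCL5 had 359 CPM (553 to 557). Among deeper cells, dog 1 had CRIP1 at 2563 CPM (3867 to 4136), HOPX at 629 CPM (806 to 820.2) and SF3B1 at 694 CPM (624 to 630.2), and dog 4 had TFPT at 3097 CPM (3226 to 3245). In low-RNA cells with a rearrangement, PFN1 had 155 CPM in dog 3 (100.4 to 106).

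MS4A1 was also looked at in the coreceptor subsets. The mean difference between low-RNA and deeper cells was 4.11 CPM in CD4 single-positive cells, higher in every dog. In CD8A single-positive cells it was -0.666 CPM. Only 58, 163, 268 and 226 low-RNA cells of dogs 1 to 4 were CD8A single-positive. They are too few to show a level this low, so no direction is read from that value. MS4A1 had 30 UMIs in all low-RNA cells together, and the difference between the subsets was not tested.

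A few barcodes carried a productive rearrangement in the V(D)J library but had no column in the expression matrix, 22 of 5992, 16 of 6958, 19 of 6863 and 14 of 6942 barcodes in dogs 1 to 4. They entered no comparison.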

How the results depend on the processing

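The 5568 genes called between low-RNA and deeper cells became 1806 within CD8A single-positive cells, where fewer genes could be tested, and 1594 among cells with a ribosomal share of at least 16%, an alternative chosen after seeing the data, in which 107 genes were called in the opposite direction. The cause was not tested. Other counts ranged from 3780 (mitochondrial share at most 5%) to 6656 (sums scaled to totals), with 4535 to 5813 when 1 dog was left out, 4749 with DESeq2 and 4360 with no replicate block. For the V(D)J comparison, 537 calls became 191 with DESeq2, which gave no adjusted p for 4753 genes, 21 with no replicate block, and 326 to 440 with 1 dog left out. Without the pairing by dog, the differences in V(D)J recovery of -35.4 (any), -38.5 (TRA), -32.5 (TRB) and -35.6 (both) percentage points and in ribosomal share of -9.26 points were the same values with an exact permutation p = 0.0286, the smallest it allows. That p also held for genes per cell, but it was 0.20 for the CD8A share and 0.857 for recurring TRB junctions. With 1 dog left out the smallest p is 0.25, so this says nothing about stability. The difference in recurring TRB junctions was -6.32 points among cells of at least 16% ribosomal share, -3.68 to -1.43 points with 1 dog left out, and turned to 0.337 points against deeper cells of 2000 to under 4000 UMIs.

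Of 1282 values for 72 genes under all alternatives, 1159 kept direction and side of the threshold, 79 no longer passed, 17 newly passed and 27 changed sign. Among cells of at least 16% ribosomal share, log2 fold changes turned to -0.76 (ITGB1), -0.57 (CD44), -0.12 (CD28), -0.40 (AHNAK), -0.19 (CD6), -0.10 (CD4), -0.39 (IL7R), -0.18 (CRY2), 0.075 (RPS7), -0.20 (HSPA5), -0.69 (CCR4), -0.19 (STAT4), -0.23 (GATA3), 0.44 (CCL5), -0.13 (TNFSF10), -0.34 (MS4A1) and -2.11 (ITGB3). RPS7 is itself counted in that share, so nothing is read from its turn. With sums scaled to totals, CD3E turned to 0.11 and B2M to 0.17, and B2M to 0.041 in cells with TRA and TRB. In CD8A single-positive cells, CD8A turned to 0.14 and IL7R to -0.029. GZMB turned to -0.22 for 500 to under 1500 UMIs, to -0.47 against deeper cells of 2000 to under 4000 UMIs, where NCR1 turned to -0.11 and ITGAM to -0.52, and lay at -0.051 to 0.29 with 1 dog left out. Of 93 values for 12 genes of the V(D)J comparison, 85 kept their side, 8 no longer passed without the block and 0 changed sign.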

Other observations

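Further gene groups, chosen after the values had been seen, are given by their counts of calls between low-RNA and deeper cells (edgeR), without a test of the group and beside 27.1% higher, 25.9% lower and a median log2 change of 0.04 for all genes. Of 34 proteasome genes tested, 27 were called lower and 1 higher, with a median of -0.66. Ubiquitin peptidases, which remove ubiquitin from proteins, had 22 of 40 genes higher and 3 lower, with a median of 0.42. Of 165 solute carriers, which move ions and metabolites across membranes, 61 were higher and 20 lower (median 0.30). Other groups lay near or below these shares. Of 227 zinc finger genes 51 were higher (22.5%) and 20 lower (8.81%), surface antigens with a CD name gave 14 of 45 higher and 11 lower, and named transmembrane genes 24 of 123 higher and 34 lower.

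TRA rearrangements of TRAV9-11 with TRAJ28, a pairing known from canine innate-like T cells, were found in 14, 15, 18 and 8 low-RNA cells of dogs 1 to 4, which is 4.39%, 3.58%, 5.07% and 1.81% of low-RNA cells with TRA, and in 3.82%, 3.86%, 4.8% and 1.94% of deeper cells with TRA. The classes differed in both directions across dogs.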
